A study of Mus musculus with 2 samples.

Results

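The genes described here are p53 and 9 genes of its pathway: Trp53, the gene of p53 itself, with Cdkn1a, Cdkn2a, Mdm2, Ccng1, Trp53inp1, Phlda3, Zmat3, Aen and Eda2r. They were chosen by name, matched by symbol to the feature tables, and all 10 were found among 32286 features. Single cells of mouse bone marrow had been measured in 2 droplet libraries prepared with a 3′ kit, 1 library of each genotype. The control library came from Mx1Cre+/-;Rosa26+/+ marrow. The MYC library came from Mx1Cre+/-;Rosa26LSL-MYC/LSL-MYC marrow, in which a MYC transgene stands behind a loxP-flanked stop in the Rosa26 locus and Cre removes the stop. Both libraries carry Mx1Cre, whose promoter is induced by interferon and is active in stem cells and in other tissues. The study asked how overexpression of MYC begun in hematopoietic stem cells changes expression in marrow cells. The number, age and sex of the animals, any inducing treatment and the time after it are not given in the sources used here.

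p53 is a transcription factor held at a low level by the ubiquitin ligase Mdm2, and Mdm2 is itself a p53 target, which closes a feedback loop. The Cdkn2a locus encodes p16INK4a, an inhibitor of Cdk4 and Cdk6, and p19ARF, which binds Mdm2 and frees p53. Excess MYC is a known trigger of the ARF arm, and loss of ARF or p53 is a frequent event in MYC-driven blood cancers of mice. Stabilised p53 binds response elements near its targets, and each element is built of a pair of copies of a short motif. Among the targets, Cdkn1a (p21) stops the cell cycle, Phlda3 restrains Akt signalling, Zmat3 is an RNA-binding protein, Aen is a nuclease with a role in apoptosis, Trp53inp1 acts in apoptosis and autophagy, Ccng1 (cyclin G1) feeds back on Mdm2, and Eda2r is a receptor of the tumour necrosis factor family. p53 is regulated largely as a protein, and protein was not measured here.

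Promoter sequences are shown for 4 members, p53 itself, its regulator Mdm2 and the targets Cdkn1a and Phlda3, to let a reader see where a p53 motif copy lies in the stretch before the start. RefSeq windows of the GRCm38.p6 build were found for 8 of the 10 members, all but Trp53inp1 and Zmat3. The motif searched was the p53 half-site, the 10-base unit of the response element, which reads alike on both strands. It was present in 5 of the members' 11 windows, against 7.13% of 32851 windows of 27025 genes. In the 250 bases before the start, with the motif in capitals, the sequences read 5′ to 3′ on the gene's strand as follows. The Cdkn1a window lies at chr17:29090729-29090978 on the plus strand and holds 2 copies, whose first bases are 73 and 51 bases before this start. The Trp53 window is chr11:69580109-69580358, plus strand, with 1 copy 75 bases before the start. The Mdm2 window is chr10:117710759-117711008, minus strand, with 1 copy 186 bases before the start. The Phlda3 window is chr1:135765835-135766084, plus strand, with no copy.
Cdkn1a: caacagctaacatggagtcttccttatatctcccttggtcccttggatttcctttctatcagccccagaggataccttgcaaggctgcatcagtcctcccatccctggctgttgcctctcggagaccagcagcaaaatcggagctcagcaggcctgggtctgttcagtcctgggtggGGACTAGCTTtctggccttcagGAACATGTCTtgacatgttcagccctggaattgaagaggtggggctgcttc
Trp53: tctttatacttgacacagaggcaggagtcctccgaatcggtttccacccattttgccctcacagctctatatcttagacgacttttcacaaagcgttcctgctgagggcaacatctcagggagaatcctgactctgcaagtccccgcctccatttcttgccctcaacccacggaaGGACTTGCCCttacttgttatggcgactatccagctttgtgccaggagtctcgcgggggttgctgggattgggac
Mdm2: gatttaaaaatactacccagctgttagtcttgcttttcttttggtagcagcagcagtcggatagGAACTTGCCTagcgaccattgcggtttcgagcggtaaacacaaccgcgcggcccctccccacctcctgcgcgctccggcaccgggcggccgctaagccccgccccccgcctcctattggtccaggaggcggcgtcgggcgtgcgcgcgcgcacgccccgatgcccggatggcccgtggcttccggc
Phlda3: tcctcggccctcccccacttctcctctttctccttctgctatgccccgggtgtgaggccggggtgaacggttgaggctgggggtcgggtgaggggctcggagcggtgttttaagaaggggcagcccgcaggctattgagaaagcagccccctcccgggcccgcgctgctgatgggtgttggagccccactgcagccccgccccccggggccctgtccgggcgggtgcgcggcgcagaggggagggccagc
Cdkn1a has a second RefSeq start downstream, and its 2 copies lie 2863 and 2841 bases before that one. Ccng1 held the copy GGGCAAGCCT and Aen the copy GGGCTTGTCC, 185 and 121 bases before a start. The 2 windows of Cdkn2a and the window of Eda2r held no copy. The window of Aen was also the one member window with CACGTG, the E-box bound by MYC and other factors, which is present in 6.02% of all windows on either strand. A match describes letters only, and no binding was measured.

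After filters, 14760 control cells with 119905786 UMIs (unique molecular identifiers, 1 for each captured RNA molecule) and 12645 MYC cells with 102740700 UMIs remained, at a median of 5321.5 and 6014 UMIs per cell. The libraries shared 97 barcodes, 77 of them in kept cells. Cells were clustered, and clusters were named from marker genes. 15 classes were named, of which 9 had at least 100 cells in both libraries and were compared. Clusters that did not meet the naming rules hold 3418 control and 3344 MYC cells. The feature named MYC, whose sequence is not given in the sources used here, had 0 control and 295 MYC UMIs. Levels are UMIs per 1000000 UMIs of a class (CPM), with 95% exact Poisson intervals. A gene was compared in a class if the libraries together held at least 50 of its UMIs, and it is called higher or lower in the MYC library where the ratio passed 1.5-fold and its 95% counting interval excluded 1. All intervals cover counting error only. With 1 library for each genotype there is no replicate spread and no test of the genotype, and a difference between the libraries cannot be told apart from one between animals or preparations.

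Of the 90 pairs of a member and a compared class, 53 had enough UMIs, 10 of them were called higher and 9 lower in the MYC library. Over all genes compared in the same 9 classes, 8.37% of the 78826 pairs of a gene and a class were called higher and 17.8% lower, so the members' share of lower calls was near the background. 5 of the 10 higher calls fell in erythroid cells, where the control held 0.94 CPM of Cdkn1a and the MYC library 26.2. Phlda3, Zmat3, Trp53 and Aen made up the other 4 there. Trp53inp1 gave 6 of the 9 lower calls, in 6 different classes. Of these 19 calls, 10 were made under each alternative of scaling, cell filter and clustering that gave a value, and 9 were lost under at least 1, as given with the genes. Cdkn2a had too few UMIs to compare in any of the 9 classes, and 338 of its 426 UMIs in the MYC library came from macrophages, a class with 654 cells in that library and 23 in the control. Over all kept cells, where cell makeup also counts, Cdkn1a (8.02 and 16.6 CPM), Cdkn2a (0.53 and 4.15 CPM) and Phlda3 (0.53 and 4.87 CPM) were called higher and Trp53inp1 (74.2 and 39.6 CPM) lower. There, 8.02% of 14157 genes tested were called higher and 21.5% lower.

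**Figure D1:**
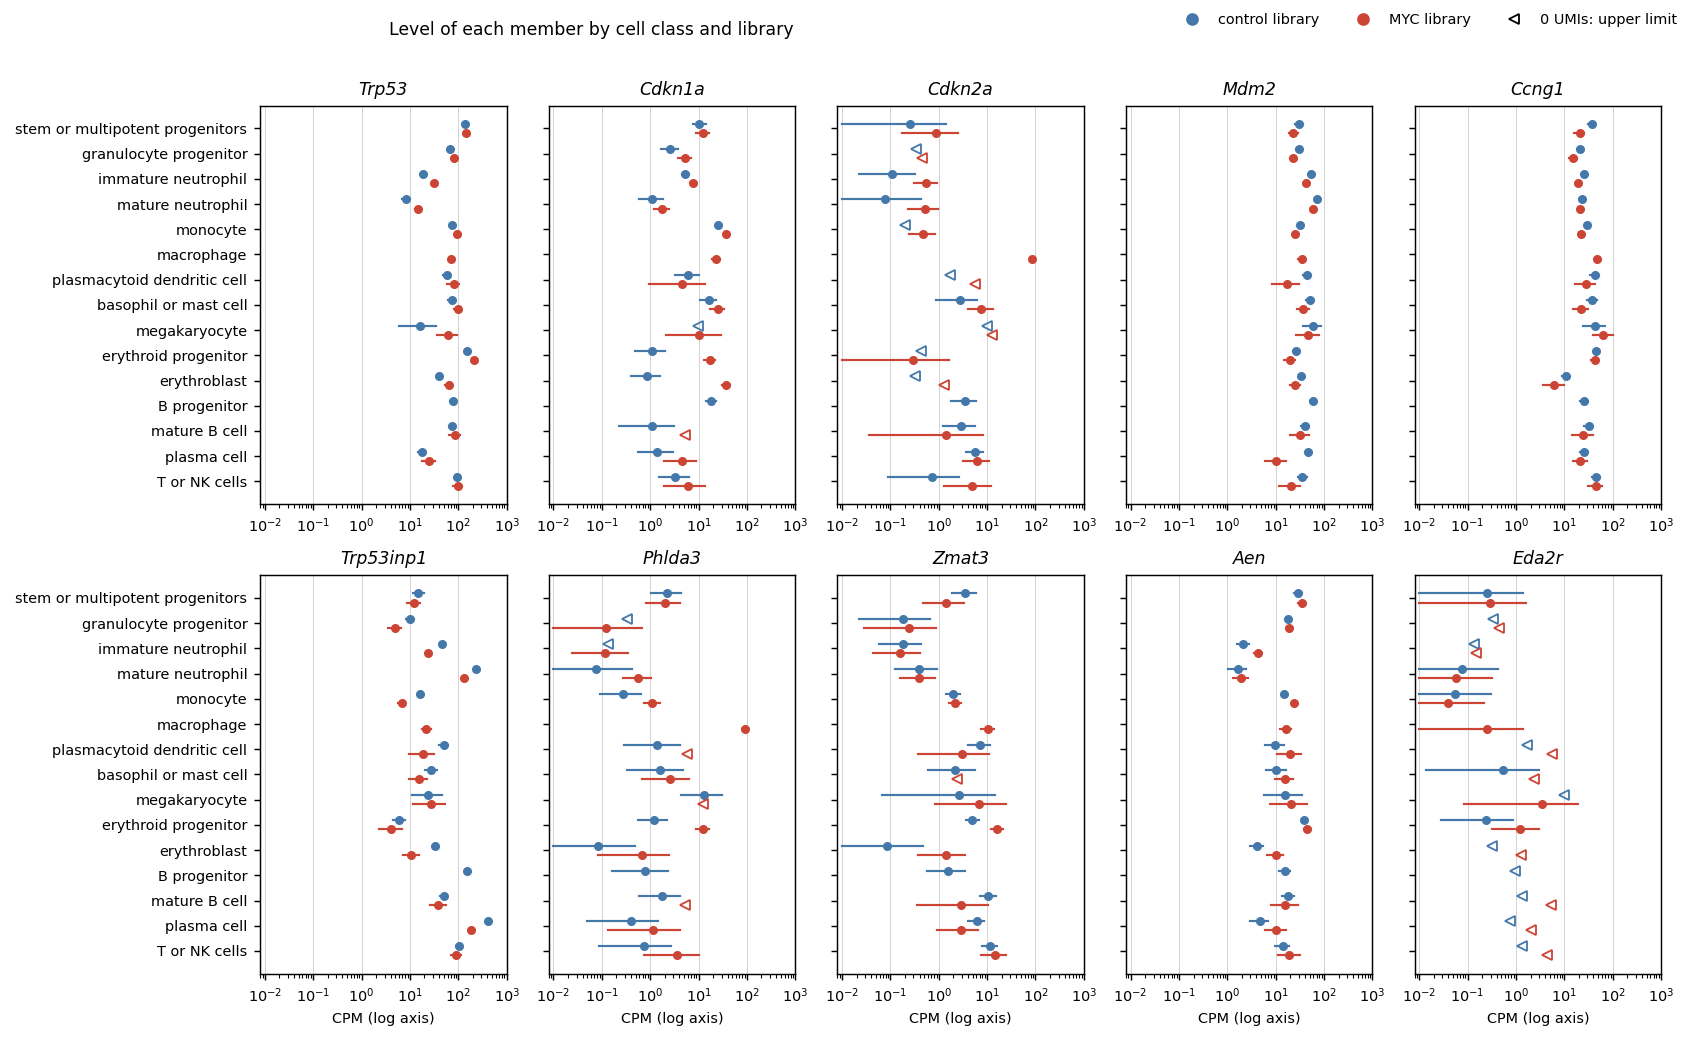
Level of each of the 10 members in CPM on a log axis, by cell class, in the control (blue) and MYC (red) libraries. Bars are 95% Poisson intervals, open triangles are upper limits where no UMI was found, and classes with under 50 cells in a library are left out. Cdkn2a and Phlda3 reach 84.0 and 89.7 CPM in MYC macrophages, and Cdkn1a in erythroblasts parts the libraries by 43.3-fold.

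Trp53 (chromosome 11, 69580359 to 69591873, plus strand, GRCm38) varied more between cell classes than between libraries. Erythroid progenitors had the highest level, with 154 control CPM against 207. Stem or multipotent progenitors followed at 137 and 147 CPM, and T or NK cells at 95.9 and 97.8 CPM. In the control, B progenitors, mature B cells, basophils or mast cells, monocytes and granulocyte progenitors came next at 66.5 to 76.3 CPM, and no neighbouring pair among these differed beyond counting error. Mature neutrophils were lowest at 8.44 and 14.6 CPM. The top class exceeded the bottom one 18.3-fold (15 to 22.4) in the control and 14.2-fold (12.3 to 16.5) in the MYC library. Along the neutrophil line the level stepped down in the control from 66.5 CPM in granulocyte progenitors to 18.3 in immature and 8.44 in mature neutrophils.

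Between the libraries, Trp53 was called higher in MYC immature neutrophils (18.3 to 32.1 CPM, log2 ratio 0.81, interval 0.65 to 0.98), mature neutrophils (8.44 to 14.6 CPM, 0.79, 0.46 to 1.12) and erythroid cells (87.2 to 141 CPM, 0.69, 0.57 to 0.81). Of all genes compared, 10.4%, 9.61% and 13.6% were called higher in these 3 classes. The erythroid ratio was under the 1.5-fold call, a log2 ratio of 0.58, without the 20 most abundant genes (0.53), with each library clustered on its own (0.53) and by markers alone (0.57). The ratio was above 0 in all 9 classes, down to 0.03 in T or NK cells, but with the 20 most abundant genes left out of the totals it was -0.14 in T or NK cells and near 0 in stem or multipotent progenitors, and it was -0.05 in granulocyte progenitors with each library clustered on its own. Mature neutrophils come mostly from different clusters in the libraries: cluster 0, led by Il1b and Fgl2, has 2297 control and 269 MYC cells, cluster 1, led by Cstdc4 and Cxcl2, has 181 and 1216, and cluster 2, led by Gpr27 and Mmp8, has 890 and 1754. Trp53 was higher in the MYC library within each of the 3, at 8.95 and 18.1, 4.59 and 13.1, and 8.04 and 15 CPM. In the 3 immature neutrophil clusters it stood at 24.4 and 39.4, 23.3 and 31.1, and 11.8 and 18.6 CPM. Cluster levels are given here without intervals, and the control level of cluster 1 comes from 181 cells.

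Mdm2 (chromosome 10, 117688875 to 117710758, minus strand), the ligase that limits p53, was spread more evenly. Mature neutrophils ranked first, with 71.6 and 58.1 CPM in that order of libraries. Erythroid progenitors were lowest in the control at 26.0 CPM, 2.76-fold (2.38 to 3.21) below mature neutrophils. In all 9 compared classes the MYC library was the lower one, by log2 ratios of -0.30 to -0.81, although in monocytes with fewer than 2 UMIs of mitosis genes the ratio was 0.09. One class passed the call, T or NK cells, with 97 UMIs (35.6 CPM) and 17 UMIs (20.3 CPM) and a ratio of -0.81 (-1.65 to -0.06). In that class 8.82% of genes were called lower. With median-of-ratios scaling (-0.75) or in cells under 5% mitochondrial UMIs (-0.66) the interval of that ratio included 0. The median gene of these classes was itself between -0.07 and -0.29. In erythroid cells Mdm2 stood at 30.2 and 22.4 CPM (-0.44, -0.71 to -0.17).

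Cdkn2a (chromosome 4, 89274471 to 89294653, minus strand) encodes p16INK4a and p19ARF from transcripts that share their 3′ end, so a 3′ library cannot tell which was counted. In the control, 28 of its 63 UMIs lay in plasma cells (5.63 CPM), 9 of them in 1 cell. B progenitors (3.41 CPM), mature B cells (2.87 CPM) and basophils or mast cells (2.68 CPM) did not differ from plasma cells step by step beyond counting error. In the MYC library macrophages stood at 84.0 CPM (75.3 to 93.5), followed by basophils or mast cells at 7.62 and plasma cells at 6.23 CPM. Granulocyte progenitors had 0 UMIs in both libraries. In the other classes of the myeloid line the counts were small in both: monocytes had 0 and 12 UMIs, immature neutrophils 3 and 14, and mature neutrophils 1 and 9. Counting intervals of these ratios excluded equal levels in monocytes (lower bound 1.99-fold) and immature neutrophils (5.04-fold, 1.41 to 27.3) but not in mature neutrophils.

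The MYC macrophages were led by C1qb, C1qc and C1qa, subunits of the first complement component that mark tissue macrophages. Their 338 Cdkn2a UMIs came from 169 of 654 cells and made up 79.3% of the library's. Phlda3 stood beside it at 89.7 CPM (80.7 to 99.5), with 361 UMIs in 220 cells, 72.2% of the library's, and 89 cells held UMIs of both. Thinned to 1000 UMIs a cell, with shallower cells left out, 46 of 603 cells (7.63%, exact interval 5.64 to 10.0) had a Cdkn2a UMI and 54 (8.96%, 6.80 to 11.5) a Phlda3 UMI. Before thinning the shares were 25.8% and 33.6%, at a median depth of 6028 UMIs. Mature neutrophils of the same library, which hold little of either gene, gave 0.063% and 0.094% after thinning, at an unthinned median of 5284 UMIs. Of the other members in these cells, Trp53 stood at 72.1 CPM, Ccng1 at 48.0, Mdm2 at 34.8, Cdkn1a at 23.1, Trp53inp1 at 21.9, Aen at 16.2, Zmat3 at 10.4, and Eda2r had 1 UMI.

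The joint clustering left 23 control macrophages, with 0 UMIs of Cdkn2a, Phlda3 and Cdkn1a in 119155 UMIs, so the comparison was repeated with other ways of choosing the cells, added after the data had been seen. With each library clustered on its own, 191 control and 661 MYC macrophages had 0 and 338 Cdkn2a UMIs, with the MYC level at 84.3 CPM and the lower bound of the exact interval of the log2 ratio at 5.09. Phlda3 had 1 and 354 UMIs there (log2 ratio 7.04, 4.56 to 12.35). By markers alone, 106 and 626 cells had 0 and 321 Cdkn2a UMIs (lower bound 3.63) and 1 and 324 Phlda3 UMIs. Among all cells with at least 3 C1q UMIs, 96 and 593, the counts were 0 and 336 for Cdkn2a (lower bound 3.86) and 0 and 332 for Phlda3 (lower bound 3.84). With doublets kept, 75 and 721 cells gave 0 and 359, and 0 and 374. The other members showed no such gap: Mdm2, Ccng1, Trp53inp1, Zmat3 and Aen had intervals that include equal levels in all 4 settings, and Cdkn1a did in 3 of them, while with doublets kept it had 0 and 108 UMIs (lower bound 1.44). Trp53 stood at 51.5 and 70.1 CPM with each library clustered on its own (0.44, 0.07 to 0.83), and its interval included 0 in the other 3. The C1q genes moved with the choice of cells: C1qa was at 703 and 1483 CPM in the first setting and at 1424 and 1293 CPM in cells with at least 3 C1q UMIs (log2 -0.14, -0.23 to -0.04). In those cells C1qb was still higher in the MYC library, at 1075 and 2022 CPM (0.91, 0.81 to 1.02), as was C1qc at 917 and 1243 CPM (0.44, 0.33 to 0.55). Their part in the result was not tested.

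**Figure D2:**
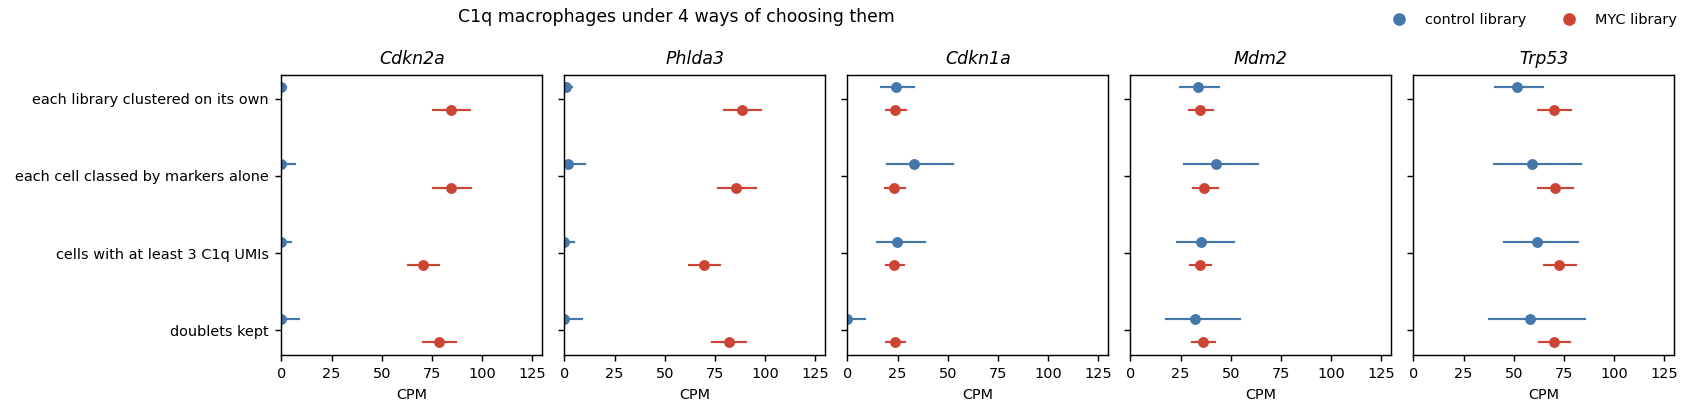
Levels in CPM of Cdkn2a, Phlda3, Cdkn1a, Mdm2 and Trp53 in macrophages chosen in 4 ways (rows), control in blue and MYC in red, with 95% Poisson intervals. Cdkn2a and Phlda3 part the libraries in each row, with 0 or 1 UMI in the control, whereas the intervals of Mdm2 meet in each row.

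Cdkn1a (chromosome 17, 29090976 to 29100727, plus strand), the p21 gene, was highest in monocytes, with 466 control UMIs (25.8 CPM) and 956 MYC UMIs (37.8 CPM). B progenitors stood at 18.1 and basophils or mast cells at 16.1 CPM in the control, and erythroid progenitors and erythroblasts, with 1.07 and 0.85 CPM, were next to the bottom above megakaryocytes, which had 0 UMIs in 61 cells. In the MYC library erythroblasts had 37.0 CPM and did not differ from monocytes beyond counting error. A gene on the opposite strand, AC167363.2, lies within Cdkn1a, and whether counting used strand is not given in the sources used here. Cdkn1a was called higher in erythroid cells and in granulocyte progenitors (28 and 43 UMIs, 2.56 and 5.16 CPM, log2 ratio 1.01, 0.29 to 1.75), where 5.19% of genes were called higher. It missed 1.5-fold in monocytes (0.55, 0.39 to 0.72) and immature neutrophils (5.31 and 7.75 CPM, 0.54, 0.23 to 0.86). Stem or multipotent progenitors, at 10.5 and 12.3 CPM (0.23, -0.41 to 0.88), and basophils or mast cells, at 16.1 and 24.8 CPM (0.62, -0.10 to 1.36), did not differ beyond counting error.

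Within immature neutrophils Cdkn1a differed between clusters. Cluster 5, led by histone genes, had 11.5 control and 12.1 MYC CPM, cluster 6, led by Fcnb and Chil3, 5.48 and 5.51, and cluster 7, led by Ltf and Zmpste24, 0.78 and 0.83. In that order the clusters held 614, 369 and 1808 control and 971, 293 and 973 MYC cells. Cells with at least 2 UMIs of the 20 mitosis genes had 6.33 CPM against 0.62 in the others in the control, and 8.70 against 0.67 in the MYC library. The part of stage or of the cell cycle was not tested. In monocytes, cluster 10 (led by Fn1 and S100a4) had 26.9 and 32.9 CPM and cluster 12 (led by F13a1 and Ass1) 25.2 and 39.7 CPM, but monocytes with fewer than 2 mitosis UMIs had a ratio of -0.12.

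Erythroid cells showed the widest gap of any member and class that had enough UMIs. The class joins 1072 control and 290 MYC cells, with 20143011 and 6262308 UMIs, of erythroid progenitors (Gata1, Klf1 and Car1 among the markers) and erythroblasts (globins and Hemgn among the markers). Of Cdkn1a, 19 control and 164 MYC UMIs were found, a 27.8-fold ratio (17.2 to 47.3, log2 4.80). Phlda3 had 11 and 43 UMIs (0.55 and 6.87 CPM, 12.6-fold, 6.38 to 27.0), and Zmat3 had 43 and 58 (2.13 and 9.26 CPM, 4.34-fold, 2.87 to 6.59). Aen stood at 18.6 and 28.7 CPM (log2 0.63, 0.37 to 0.89) and was under the call without the 20 most abundant genes (0.47), with each library clustered on its own (0.52) and by markers alone (0.54). Ccng1 stood at 25 and 25.7 CPM (0.04, -0.22 to 0.30). Trp53inp1 went the other way, at 21.6 and 7.19 CPM (-1.59, -2.06 to -1.14). In all, 8 members had enough UMIs, 5 were called higher and 1 lower, with a median log2 ratio of 0.64, where 13.6% of 9753 genes were called higher and 18.3% lower and the median gene was at -0.08.

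The members split by stage inside the erythroid class. In progenitors (267 and 99 cells) Cdkn1a stood at 1.07 and 16.9 CPM (9 and 57 UMIs, 15.9-fold, 7.79 to 36.4), Phlda3 at 1.19 and 12.2 CPM (10.3-fold, 5.06 to 23.0) and Zmat3 at 4.98 and 16 CPM (3.22-fold, 2.11 to 4.94). In erythroblasts (805 and 191 cells) the Cdkn1a gap was wider, 0.85 and 37.0 CPM (10 and 107 UMIs, 43.3-fold, 22.6 to 92.9), while Phlda3 had 1 and 2 UMIs and Zmat3 1 and 4. Aen parted in erythroblasts (4.01 and 10.0 CPM, 2.50-fold, 1.52 to 4.05) and hardly in progenitors (38.8 and 44.8 CPM). Trp53inp1 did so in erythroblasts as well, at 32.9 and 10.7 CPM, against 5.93 and 4.16 in progenitors. The difference between the stages was not tested.

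Maturity does not match between the libraries, so cells were also binned by the share of globin UMIs, an alternative added after the data had been seen. Below 1% globin (230 and 91 cells) Cdkn1a stood at 0.67 and 13.7 CPM, from 1 to 10% (368 and 65 cells) at 1.33 and 17.5 CPM, and at 10% or more (474 and 134 cells) at 0.77 and 53.9 CPM. Its log2 ratio was 4.35, 3.71 and 6.13 in the 3 bins. Phlda3 was seen mainly in the lowest bin, at 1.34 and 12.7 CPM, as was Zmat3 at 5.23 and 16.9 CPM. For Trp53 the ratio was 0.44, 0.73 and 1.01 from the lowest bin to the highest, and for Trp53inp1 it was -0.76, -1.29 and -1.77, the first from 37 and 9 UMIs with an interval that includes equal levels (-2.00 to 0.32). Within each bin the mitosis genes summed lower in the MYC library, at 3898 and 2591, 9448 and 6486, and 13855 and 10613 CPM, and the part of the cell cycle in the Cdkn1a result was not tested.

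**Figure D3:**
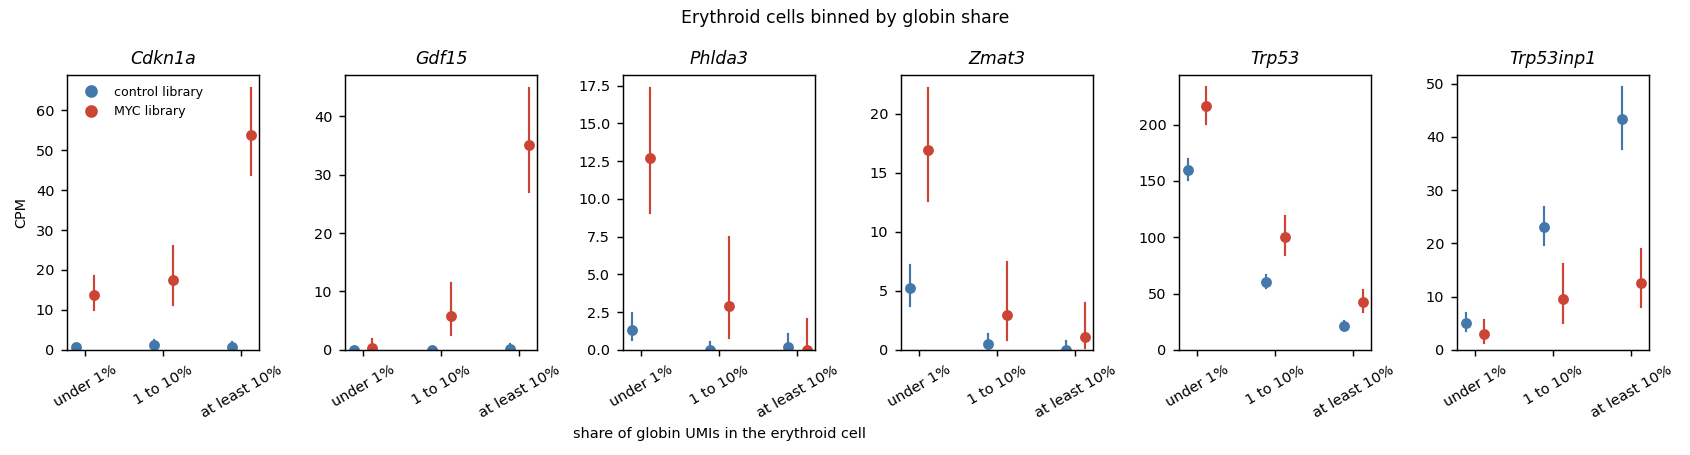
Levels in CPM of Cdkn1a, Gdf15, Phlda3, Zmat3, Trp53 and Trp53inp1 in erythroid cells binned by their share of globin UMIs, control in blue and MYC in red, with 95% Poisson intervals and a linear axis for each gene. Cdkn1a is at 1.33 CPM or below in each control bin and reaches 53.9 CPM in the most globin-rich MYC bin, while Trp53inp1 is lower in the MYC library in the upper 2 bins and not beyond counting error in the lowest.

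Cdkn1a was concentrated in part of the MYC erythroid cells. A UMI was found in 13 of 1072 control cells (1.21%) and in 52 of 290 MYC cells (17.9%), at median depths of 13813.5 and 17871 UMIs. Thinned to 1000 UMIs, 3 of 1065 (0.282%, exact interval 0.058 to 0.821) and 9 of 290 (3.10%, 1.43 to 5.81) had one. Mature neutrophils, which had little Cdkn1a, gave 0.215% and 0.251% after thinning, at unthinned median depths of 3687 and 5284 UMIs. The richest MYC cell held 17 UMIs and the 10 richest 88 of the 164.

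Markers of some other cells moved with the gene. The 8 monocyte markers, none of them at 0, summed to 47.8 CPM in control and 95.5 CPM in MYC erythroid cells, against 5237 and 3974 in monocytes. The 8 macrophage markers summed to 5.81 and 19.6 CPM, with Cd5l at 0 in the control and Mertk at 0 in the MYC library, and C1qa, C1qb and C1qc summed to 2.43 and 15.5 CPM. Within the MYC erythroid cells, the 52 with a Cdkn1a UMI had 254 CPM of monocyte markers against 60.2 in the other 238, and 4303 against 2090 CPM of immature neutrophil markers. Macrophage markers were lower in the cells with a Cdkn1a UMI, at 13.1 against 21.1 CPM, and those of mature neutrophils (319 against 310.0 CPM) and granulocyte progenitors (325 against 316 CPM) were close. They also had more globin (median 16.4% against 6.77% of UMIs) and more Gdf15 (28.9 against 7.81 CPM), Phlda3 (17.5 against 4.49 CPM) and Zmat3 (19.2 against 7.03 CPM). In the 691 and 138 erythroid cells without a single monocyte marker UMI, an alternative added after the data had been seen, Cdkn1a stood at 0.94 and 31.2 CPM (log2 5.06, 4.15 to 6.11). The part of the other markers was not tested. There 6 members had enough UMIs, with Cdkn1a, Trp53 and Aen called higher and Trp53inp1 and Mdm2 lower, where 13.5% of 8646 genes were called higher and 18% lower.

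Clusters 4 and 17 scored highest for the erythroblast markers but did not meet the naming rules and stayed outside these counts. Cluster 4, led by Tmcc2, Xpo7, Slfn14 and Bpgm with 245 control and 66 MYC cells, had Cdkn1a at 10.9 and 9.39 CPM and Trp53inp1 at 101 and 183 CPM. Cluster 17, led by Gm26917, Sox6 and Ank1 and low in UMIs, with 142 and 245 cells, had Cdkn1a at 6.75 and 22.1 CPM and Trp53inp1 at 33.7 and 48.9 CPM. The levels of these 2 clusters are given without UMI counts or intervals. Neither a difference nor a lack of one is read from them. With each library clustered on its own, 1179 control and 688 MYC cells were classed as erythroid. Cdkn1a then stood at 0.97 and 24.9 CPM, the Trp53 and Aen ratios were 0.53 and 0.52, under the call, and the Trp53inp1 ratio was 0.04 in place of -1.59. The Trp53inp1 ratio was -0.26 by markers alone and -0.30 in cells with at least 1000 UMIs and 500 genes, so that call rests on which cells are counted. The dissociation genes, an early-response list that also rises with handling, summed to 159 and 213 CPM in the erythroid class, with 5 of 9 compared genes called higher, beside 13.6% of all genes there. The mitosis list summed to 8533 and 5775 CPM, and the part of either in the result was not tested.

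Trp53inp1 (chromosome 4, 11156431 to 11174379, plus strand) differed widely between classes. Plasma cells had 406 control and 187 MYC CPM, mature neutrophils 234 and 133 CPM, and erythroid progenitors, the lowest, 5.93 and 4.16 CPM, a span of 68.6-fold (51.8 to 92.7) and 45.1-fold (26.5 to 83.4). In the neutrophil line its order was the reverse of that of Trp53, from 10.2 CPM in control granulocyte progenitors to 47.0 in immature and 234 in mature neutrophils. In the MYC library these values were 4.92, 23.7 and 133 CPM. It was lower in the MYC library in all 9 classes and called lower in 6: granulocyte progenitors (-1.04, -1.60 to -0.52), immature neutrophils (-0.99, -1.13 to -0.85), mature neutrophils (-0.82, -0.90 to -0.74), monocytes (16.3 and 6.72 CPM, -1.28, -1.56 to -1.0), basophils or mast cells (27.4 and 15.2 CPM, -0.85, -1.61 to -0.12) and erythroid cells, where the direction rests on the clustering as described. In immature neutrophils the call was lost in 5 of 12 alternatives, at -0.25 with Leiden resolution 0.5, -0.43 under 5% mitochondrial UMIs, -0.47 with doublets kept, -0.50 in cells with fewer than 2 mitosis UMIs and -0.52 by markers alone. In mature neutrophils it was lost under 5% mitochondrial UMIs (-0.56) and with doublets kept (-0.54). In monocytes it was lost in cells with fewer than 2 mitosis UMIs (-0.41). In basophils or mast cells the interval included 0 with median-of-ratios scaling (-0.66) and without cells with a C1q UMI (-0.72). The shares of all genes called lower in the first 5 of these classes were 25.1%, 19.1%, 23.0%, 16.4% and 17.4%. The remaining ratios, -0.28 in stem or multipotent progenitors, -0.35 in mature B cells and -0.21 in T or NK cells, did not differ from 0 beyond counting error.

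The neutrophil difference was present inside single clusters. In mature clusters 0, 1 and 2 Trp53inp1 stood at 266 and 177, 267 and 159, and 166 and 114 CPM. In immature clusters 5, 6 and 7 it stood at 17.0 and 13.2, 21.3 and 14.4, and 79.0 and 49.0 CPM. Cells with mitosis UMIs had less of it, at 39.0 against 83.9 CPM in control immature neutrophils and 18.9 against 59.3 in MYC ones. In mature neutrophils the levels did not differ beyond counting error, at 234.3 against 233.9 CPM in the control and 136 against 129 in the MYC library. After thinning to 1000 UMIs, 20.3% of control and 12.9% of MYC mature neutrophils had a Trp53inp1 UMI, and 52.7% of control cells did before thinning. In monocyte clusters 10 and 12 the levels were 29.5 and 14.1, and 10.1 and 3.85 CPM, while monocytes with fewer than 2 mitosis UMIs had a ratio of -0.41.

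**Figure D4:**
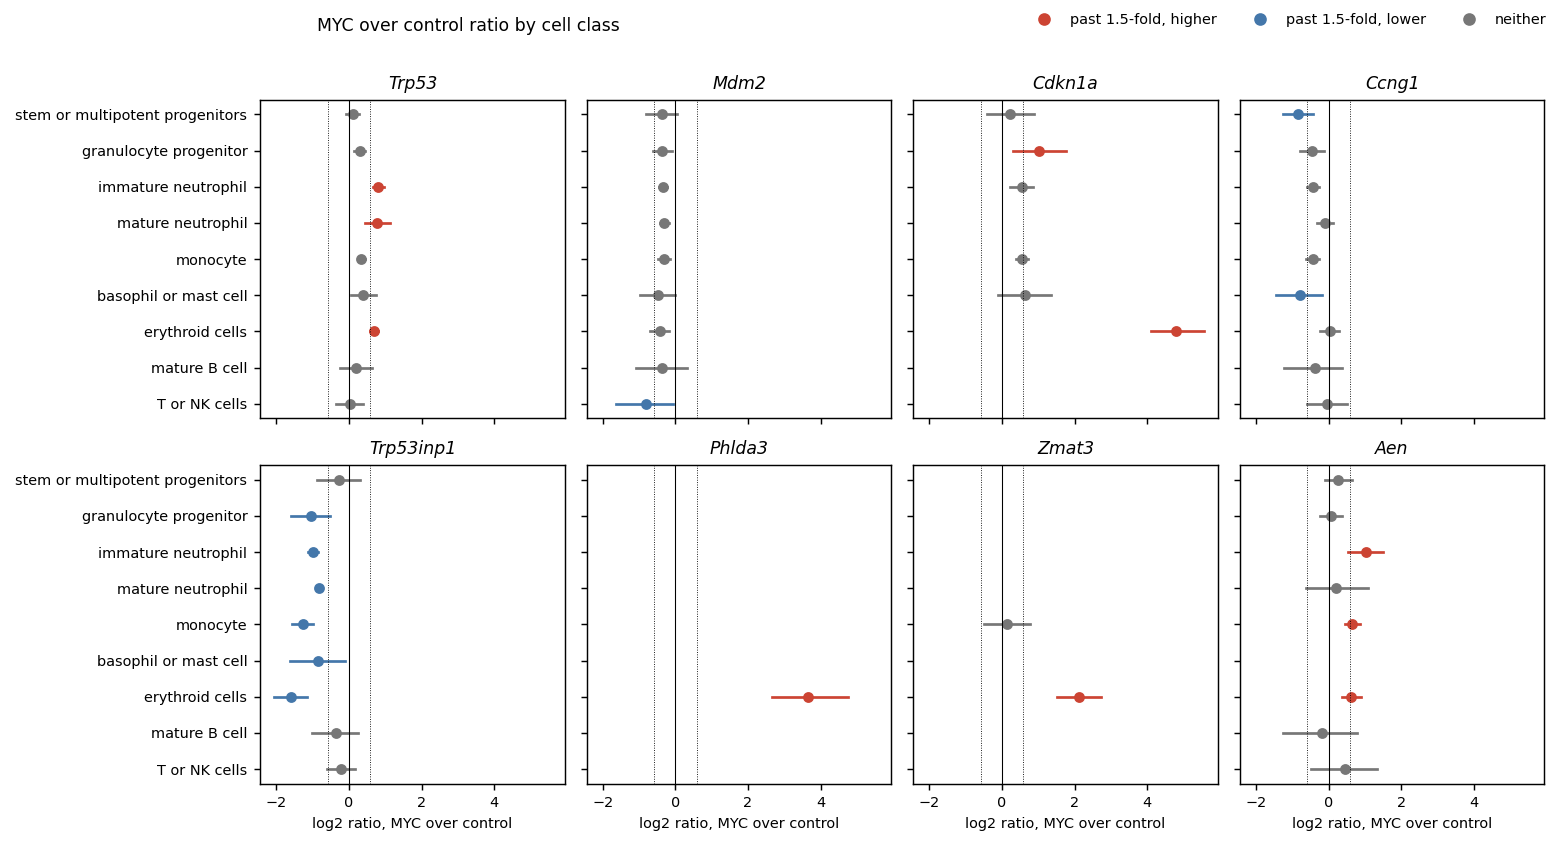
log2 ratio of the MYC over the control library for the 8 members with enough UMIs, by the 9 compared classes, with 95% counting intervals. Red and blue points passed 1.5-fold (dotted lines) upwards or downwards, and pairs with under 50 UMIs are blank. Cdkn1a, Phlda3 and Zmat3 stand far to the right in erythroid cells, and all Trp53inp1 and Mdm2 points lie left of 0.

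Ccng1 (chromosome 11, 40748552 to 40755311, minus strand) was lower in MYC stem or multipotent progenitors (36.9 and 20.6 CPM, log2 ratio -0.84, -1.27 to -0.42) and basophils or mast cells (37.6 and 21.6 CPM, -0.80, -1.44 to -0.19). These were classes in which 11.1% and 17.4% of genes were called lower. In the other 7 it ranged from -0.46 to 0.04. Erythroblasts were lowest for it in both libraries, 10.7 and 6.22 CPM, while erythroid progenitors, at 44.8 and 42.5 CPM, were among the highest. Aen (chromosome 7, 78895854 to 78911209, plus strand) was highest in erythroid progenitors (38.8 and 44.8 CPM) and lowest in mature neutrophils (1.63 and 1.88 CPM). Besides erythroid cells, it was called higher in immature neutrophils (58 and 109 UMIs, 2.13 and 4.31 CPM, 1.02, 0.55 to 1.51) and monocytes (15 and 23.7 CPM, 0.66, 0.45 to 0.87), where 7.41% of genes were called higher, though the monocyte ratio was 0.15 with each library clustered on its own, 0.55 without the 20 most abundant genes and 0.58 at Leiden resolution 0.5, all under the call. In immature neutrophils with at least 2 mitosis UMIs, Aen stood at 2.09 and 4.71 CPM (47 and 105 UMIs). In the other immature neutrophils it stood at 2.27 and 1.34 CPM (11 and 4 UMIs), too few UMIs to compare. The part of the cell cycle in that call was not tested.

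Zmat3 (chromosome 3, 32334792 to 32366014, minus strand) was highest in control T or NK cells at 11.4 CPM (31 UMIs) and mature B cells at 10.4 CPM (29 UMIs). In the MYC library erythroid progenitors led at 16 CPM, not beyond counting error above T or NK cells at 14.3 CPM (12 UMIs). In monocytes, the other class with enough UMIs, it stood at 1.99 and 2.17 CPM (0.13, -0.50 to 0.78). Phlda3 (chromosome 1, 135766119 to 135769136, plus strand) had 5 and 28 UMIs in monocytes (0.28 and 1.11 CPM, 4.01-fold, 1.53 to 13.3) and 1 and 10 in mature neutrophils, under the count needed to compare. Control megakaryocytes had 5 UMIs (13.2 CPM) and MYC megakaryocytes 0, in 61 cells each. Eda2r (chromosome X, 97333840 to 97377216, minus strand) had 9 UMIs in the whole control library and 15 in the MYC library, 4 of them in erythroid progenitors, and no difference was detectable at this depth.

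Count by class gives the spread of the members. Called higher and lower were 0 and 1 of 6 compared in stem or multipotent progenitors (5.74% of all genes higher there, 11.1% lower), 1 and 1 of 6 in granulocyte progenitors (5.19% and 25.1%) and 2 and 1 of 6 in immature neutrophils (10.4% and 19.1%). They were 1 and 1 of 5 in mature neutrophils (9.61% and 23.0%), 1 and 1 of 7 in monocytes (7.41% and 16.4%), and 0 and 2 of 5 in basophils or mast cells (7.62% and 17.4%). In mature B cells it was 0 and 0 of 5, beside 5.70% and 18.5% of all genes, and in T or NK cells 0 and 1 of 5, beside 8.93% and 8.82%.

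A list of 38 other p53 targets gave 23 higher and 42 lower calls over the 9 classes, and a list of 25 p53 regulators 20 and 34. These are 11% and 20.1% of 209 compared pairs of a gene and a class for the targets and 10.7% and 18.2% of 187 for the regulators, near the 8.37% and 17.8% of all genes. Over all genes in these classes 6595 calls were higher and 14046 lower. These splits turn with the scaling: with median-of-ratios scaling, which moves all ratios of a class up by 0.07 to 0.29, the other targets had 33 higher and 22 lower, the regulators 30 and 18, the 10 members 14 and 7, and all genes 11051 and 7463.

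Among the pro-apoptotic targets, Bax, which permeabilises the outer mitochondrial membrane, was called higher in all 9 classes, by log2 ratios of 0.72 in stem or multipotent progenitors (54.3 and 89.2 CPM) to 1.47 in T or NK cells (39.3 and 109 CPM). In granulocyte progenitors it stood at 55.9 and 97.4 CPM, in mature neutrophils at 8.59 and 22.5, in monocytes at 80.5 and 159, in basophils or mast cells at 56.4 and 125 and in mature B cells at 42.7 and 75.1. Bbc3 (Puma), an activator of Bax, was called higher in 4 of 7 classes, among them granulocyte progenitors (12 and 38 UMIs, 2.06, 1.09 to 3.13) and erythroid cells (6.70 and 26.7 CPM, 1.99, 1.66 to 2.33). Apaf1, the scaffold of the apoptosome, was called lower in 6 of 9, for example in stem or multipotent progenitors (34.6 and 19.7 CPM, -0.81), granulocyte progenitors (59.9 and 30.6 CPM, -0.97) and basophils or mast cells (70.3 and 41.3 CPM, -0.77). Pmaip1 (Noxa) differed in sign, at 23.9 and 3.65 CPM in mature neutrophils (-2.71, -3.12 to -2.32), 0.44 and 1.54 CPM in immature neutrophils (1.81, 0.85 to 2.88) and 4.92 and 8.58 CPM in monocytes (0.80, 0.44 to 1.18). The death receptor gene Fas stood at 22.9 and 10.1 CPM in mature B cells (-1.18, -2.55 to -0.06).

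Gdf15, a secreted stress hormone, had 1 UMI in control and 73 in MYC erythroid cells (0.05 and 11.7 CPM, log2 ratio 7.88, 5.35 to 13.2). In the globin bins its counts were 0 and 1, 0 and 8, and 1 and 64 UMIs. Erythroid cells had 7 higher and 6 lower calls among 26 other targets compared, beside 13.6% and 18.3% of all genes there. The median log2 ratio of these targets was 0.11, beside -0.08 for the median gene. The lowest were Pml, of the nuclear bodies (87.4 and 36.4 CPM, -1.26, -1.47 to -1.06), and Sesn1, a sestrin that restrains mTORC1 (27.4 and 13.1 CPM, -1.07, -1.42 to -0.73). Pml was also low in monocytes (33.6 and 14.6 CPM, -1.20, -1.39 to -1.01), and Sesn1 in basophils or mast cells (21.5 and 12.1 CPM, -0.83, -1.70 to -0.01).

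Other genes of the target list were among the highest or lowest past the call in a class. Cd80, a costimulatory ligand, was called lower in all 3 classes where it was compared: immature neutrophils (5.39 and 1.54 CPM, -1.80), mature neutrophils (14.7 and 4.22 CPM, -1.80) and monocytes (3.37 and 1.31 CPM, -1.37). Tap1, the peptide transporter of antigen presentation, stood at 130 and 202 CPM in T or NK cells (0.64, 0.36 to 0.91). Perp stood at 2.05 and 0.99 CPM (-1.05) and Dcxr, a sugar reductase, at 0.88 and 2.10 CPM (1.25) in immature neutrophils. Rps27l stood at 38.4 and 60.5 CPM in mature neutrophils (0.66), Plk3, a stress-responsive kinase, at 3.93 and 1.68 CPM in granulocyte progenitors (-1.23) and Psrc1 at 14.4 and 8.01 CPM in stem or multipotent progenitors (-0.85). Rrm2b, a ribonucleotide reductase subunit, stood at 55.2 and 26.0 CPM in mature B cells (-1.09), and Ephx1, an epoxide hydrolase, at 30.9 and 11.9 CPM in T or NK cells (-1.37).

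**Figure D5:**
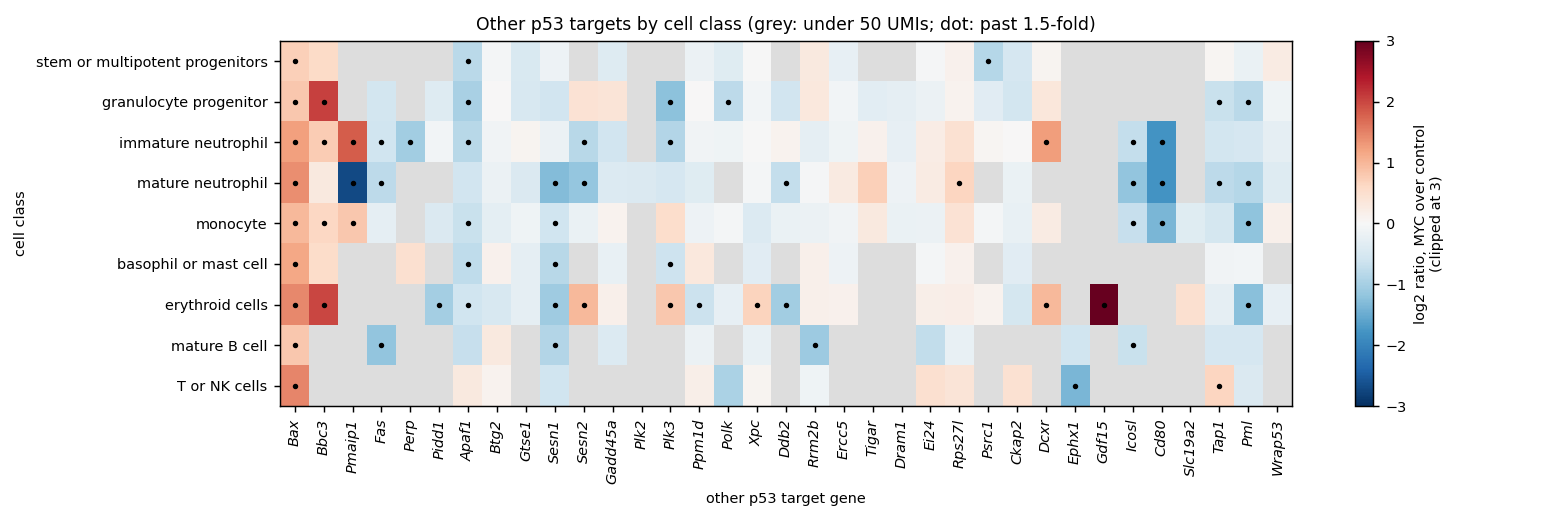
Heat map of the log2 ratio of the MYC over the control library for the 35 other p53 targets with at least 50 UMIs in some class (columns) in the 9 compared classes (rows), red higher and blue lower, clipped at 3. Grey cells had under 50 UMIs and dots mark calls past 1.5-fold. The Bax column is red with a dot in all 9 rows, and Gdf15 has a value only in erythroid cells.

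Among the regulators, Rpl11 and Rpl23, ribosomal proteins that can bind and inhibit Mdm2, were called higher in 9 of 9 and 7 of 9 classes. Rpl11 ranged from 0.66 in stem or multipotent progenitors (2420 and 3829 CPM) and granulocyte progenitors (2459 and 3892 CPM) to 1.27 in mature neutrophils (225 and 544 CPM). In immature neutrophils the 2 genes stood at 498 and 1132, and 781 and 1700 CPM, and in erythroid cells at 1574 and 3282, and 2465 and 4655 CPM. Rpl5, another ribosomal protein of the list, was called higher in 3 of 9 classes, with log2 ratios from 0.04 to 0.80. Ribosomal protein genes have near-identical copies in the genome among which counting could split reads, so their levels are uncertain. The coactivators Crebbp and Ep300, which acetylate p53, were called lower in 8 and 7 of 9 classes, with Crebbp at 109 and 61.8 CPM in stem or multipotent progenitors (-0.82), 160 and 90.4 in mature neutrophils (-0.82), 115 and 65.1 in monocytes (-0.82), 128 and 64.1 in basophils or mast cells (-1.0) and 84.4 and 39.8 in erythroid cells (-1.09). Ep300 stood at 132 and 77.2 CPM in immature neutrophils (-0.77) and 146 and 69.3 in mature B cells (-1.08). Trp53bp1, a p53-binding repair protein, was among the lowest in stem or multipotent progenitors (-0.81), immature neutrophils (-0.88), monocytes (-0.75) and mature B cells (61 and 5 UMIs, -1.60, -3.27 to -0.30). The kinase gene Hipk2 stood at -0.80 in granulocyte progenitors and -1.12 in erythroid cells, the ligase gene Cop1 at -0.75 in mature neutrophils, and the kinase gene Atm at -1.14 in basophils or mast cells.

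Across 28 points (14 classes in each library, which share a library's depth and background RNA), the genes whose level on the log2(CPM + 1) scale was most like that of Trp53 were Eif3e (Pearson r 0.96), Dimt1 (0.96) and Rpl23a (0.95), of 9447 searched. For Cdkn1a they were Dynlt1a (0.75), Hist1h2bg (0.74) and Lamtor3 (0.72), and for Ccng1 Slc39a1 (0.79), Helz (0.77) and Dnmt3a (0.77). Among the members, Trp53 and Aen went together most (0.87), Cdkn2a and Phlda3 less so (0.61), and Trp53 and Trp53inp1 ran opposite (-0.64). For Cdkn2a and Phlda3, 1 of the 28 points, MYC macrophages, stood at 84.0 and 89.7 CPM, and the coefficient without it is not given. These coefficients are descriptions of the classes, not of cells.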

How the data were processed

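The authors deposited a gene by cell matrix of UMI counts for each library, which the file headers credit to Cell Ranger 6.0.0. The submitters' processing notes name Cell Ranger 6.0, Seurat, mm10 and GRCm38. How cells were called and whether counting used strand are not given in the sources used here. Cells with at least 500 UMIs, at least 200 genes and at most 10% mitochondrial UMIs were kept. Scrublet, run with an expected rate of 0.8% per 1000 barcodes, marked 701 control (4.53%) and 251 MYC (1.95%) cells as doublets against 13.7% and 11.6% expected, and these were removed, so others may remain.

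Both libraries were clustered together in scanpy 1.11.5 on Python 3.11.15 (2000 variable genes, 30 components, 15 neighbours, Leiden resolution 1). A cluster was named where at least 3 markers of a type were detected and its leading genes fitted the name. Classes with at least 100 cells in each library were compared, and levels are given from 50 cells. UMIs were summed by class and library and divided by the class total. Intervals are 95% and exact (Poisson, conditional binomial for ratios, Clopper-Pearson for shares, scipy 1.17.1), and cover counting error only. Calling was tested on simulated Poisson counts that had no spread between cells or libraries, so that test does not cover such spread. List medians use log2(CPM + 1).

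The members and lists were chosen with earlier results of these data known. All 10 members are named, and of the other lists the 2 highest and 2 lowest genes past the call in each class, with a few more chosen after their values were seen. The genes most like Mdm2 across classes are not reported here. Alternatives covered scaling, filters, doublets, clustering, mitosis and thresholds.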

Additional observations from a re-analysis of the deposited data

Results flagged for a closer look

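The 4 genes given here, all of the list of other p53 targets, were called higher in one class and lower in another, and the differences between classes were not tested. Plk3, a stress-responsive kinase, was lower in granulocyte progenitors (-1.23), immature neutrophils (22.9 and 12.4 CPM, -0.88) and basophils or mast cells (105 and 68.6 CPM, -0.61) and higher in erythroid cells (42 and 23 UMIs, 2.09 and 3.67 CPM, 0.82, 0.02 to 1.58). Pmaip1 was higher in immature neutrophils (1.81) and monocytes (0.80) and lower in mature neutrophils (-2.71). Sesn2, a sestrin, was lower in immature (7.84 and 4.43 CPM, -0.82) and mature neutrophils (94.4 and 42.4 CPM, -1.15) and higher in erythroid cells (15.7 and 31.0 CPM, 0.98, 0.72 to 1.24). Tap1 was lower in granulocyte progenitors (73.4 and 46.6 CPM, -0.66) and mature neutrophils (78.8 and 45.6 CPM, -0.79) and higher in T or NK cells (0.64). Values are log2 ratios of the MYC over the control library, after the levels in that order.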

How the results depend on the processing

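No paired analysis was possible because each genotype has 1 library. The 53 member ratios had 567 alternative values, of which 23 had the opposite sign. In 19 of these the interval of the main ratio included 0, and 4 reversed a ratio whose interval excluded 0: Trp53 in granulocyte progenitors (-0.046) and Trp53inp1 in erythroid cells (0.036) with each library clustered on its own, and Cdkn1a (-0.12) and Mdm2 (0.093) in monocytes with fewer than 2 mitosis UMIs. In erythroid cells Cdkn1a ranged from 3.61 to 5.02, Phlda3 from 3.42 to 4.05 and Zmat3 from 1.47 to 3.01. Cells with fewer than 2 mitosis UMIs left 3 classes, with 3 higher and 1 lower call in 14 pairs for members, 6 and 16 in 52 for other targets and 10 and 14 in 47 for regulators, beside 10.9% and 20% of all genes. A fold of 2 gave 5 and 3 in 53, 10 and 17 in 209, and 6 and 8 in 187, beside 2.31% and 5.16%. Median-of-ratios scaling left 22 lower calls for other targets and 18 for regulators, and put the medians of other targets at 0.062 in immature neutrophils and -0.017 in monocytes, and of regulators at 0.074 in granulocyte progenitors and -0.034 in monocytes. Without the 20 most abundant genes the monocyte median of other targets was -0.26, and with libraries clustered apart the granulocyte progenitor median of regulators was -0.43. The control erythroid level of Cdkn1a was 1.98 CPM under 5% mitochondrial UMIs, 1.64 with at least 1000 UMIs and 1.93 by markers alone. That of Trp53inp1 in control mature neutrophils was 211, 190.0 with doublets kept, 266 at resolution 0.5 and 226 clustered apart, the first under 5% mitochondrial UMIs. Without thinning the shares were 17.9% and 1.21% for Cdkn1a in MYC and control erythroid cells, 25.8% for Cdkn2a and 33.6% for Phlda3 in MYC macrophages and 52.7% for Trp53inp1 in control mature neutrophils, and at 2000 UMIs the last 3 were 14.1%, 15.9% and 36.0%. The cause of these shifts was not tested. Stem or multipotent progenitors gave no value at resolution 0.5, with at least 1000 UMIs or clustered apart.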

Other observations

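The MYC feature marks few cells, and the members were set beside it within the MYC library. Of 295 UMIs, 151 lay in mature neutrophils, where 135 cells had one and 3104 had none, at median depths of 5677 and 5275.5 UMIs. Trp53 stood at 19.1 CPM in cells with a MYC UMI and 14.3 in the others (log2 ratio 0.41, -0.45 to 1.16), Mdm2 at 58.5 and 58.1 (0.01, -0.45 to 0.44) and Trp53inp1 at 118 and 133 (-0.17, -0.49 to 0.13). None of these 3 differed there beyond counting error. In monocytes, with 43 and 1545 such cells, Ccng1 stood at 35.3 and 21.6 CPM (0.71, 0.06 to 1.28), and the intervals of the other 9 members included 0, among them Cdkn1a (0.48, -0.03 to 0.96). In immature neutrophils, with 44 and 2193 cells, the intervals of the 9 members with a UMI all included 0. Over the neutrophil lineage, with 182 and 5730 cells, Trp53inp1 stood at 77.4 and 57.4 CPM (0.43, 0.14 to 0.70), Trp53 at 24.4 and 34.4 CPM (-0.50, -1.02 to -0.01) and Aen at 2 and 298 UMIs (-2.10, -5.16 to -0.24), where the stages of the lineage are pooled, and the intervals of the other 7 included 0. A cell without a UMI may still carry the transcript.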
